A study of Mus musculus with 6 samples.

Results

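The genes examined handle lipoproteins and cholesterol, here in adult mouse left ventricles, and were Lpl, Gpihbp1, Cd36, Apoe, Vldlr, Lrp1, Npc1, Npc2 and Abca1. They were chosen by name for their roles, with earlier results of these data known. All 9 were found among the 43629 genes counted in each heart and were tested. RNA came from the left ventricles of 6 male CD-1 mice, an outbred strain, at 1 year of age. Their dams had been injected once daily during early gestation with vehicle, which was normal saline (3 hearts), or with 20 mg/kg caffeine (3 hearts), so that the caffeine-treated hearts were exposed in utero and not as adults. One field of the labels gives the injections as embryonic days 6.5 to 9.5 and another ends them at 10.5. Caffeine blocks adenosine receptors, and the question was whether exposure before birth was followed by altered gene expression in the adult heart. The dam of each heart is not given in the sources used here, so p-values measure only the spread between these 6 samples and hearts of 1 litter cannot be told apart from independent ones.

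The heart draws much of its energy from fatty acids, and most of these reach it as triglyceride packed in lipoproteins. Lipoprotein lipase, made mainly by cardiomyocytes, is carried across the capillary wall by Gpihbp1 and frees fatty acids that Cd36 helps to take up. Apolipoprotein E is a ligand by which lipoprotein remnants bind receptors of the low density lipoprotein receptor family, among them Vldlr and Lrp1. Cholesterol that enters with these particles leaves the lysosome by way of Npc2 and Npc1, and Abca1 loads surplus cholesterol onto lipid-poor apolipoproteins outside the cell.

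None of the 9 genes passed the thresholds between treatments. With Benjamini-Hochberg adjusted p below 0.05 and a fold change above 1.5 in edgeR's quasi-likelihood test as the thresholds, 0 of the 9 were called, against 0.107% of the 13092 genes tested. In 0 of the 9 did the 3 caffeine-treated hearts all lie above or all below the 3 vehicle hearts, against 14.2% of all genes tested. Their median log2 fold change was 0.00, the same to 2 decimals as over all genes, with 5 fitted above 0 and 4 below. No member had an unadjusted p under 0.05 in this test or in DESeq2's, and 1 of the 9, Npc1, had one in edgeR's exact and likelihood ratio tests and in limma-voom. Each of these tests also called 0 of the 9, where DESeq2 called 0.512% of all genes, the exact test 0.718%, the likelihood ratio test 0.771% and limma-voom 0.107%, and edgeR with the replicate number as a block called 0 of the 9 and 0.306% of all genes. Apoe, Gpihbp1 and Npc1 are on the list of changed genes that the study chose from these same hearts, so their values are no independent evidence of that choice. The paper used edgeR with the same thresholds, and none of these genes passed them in the tests named here. Their fold changes in the quasi-likelihood test were 1.14 for Apoe, 1.13 for Gpihbp1 and 0.653 for Npc1.

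**Figure D1:**
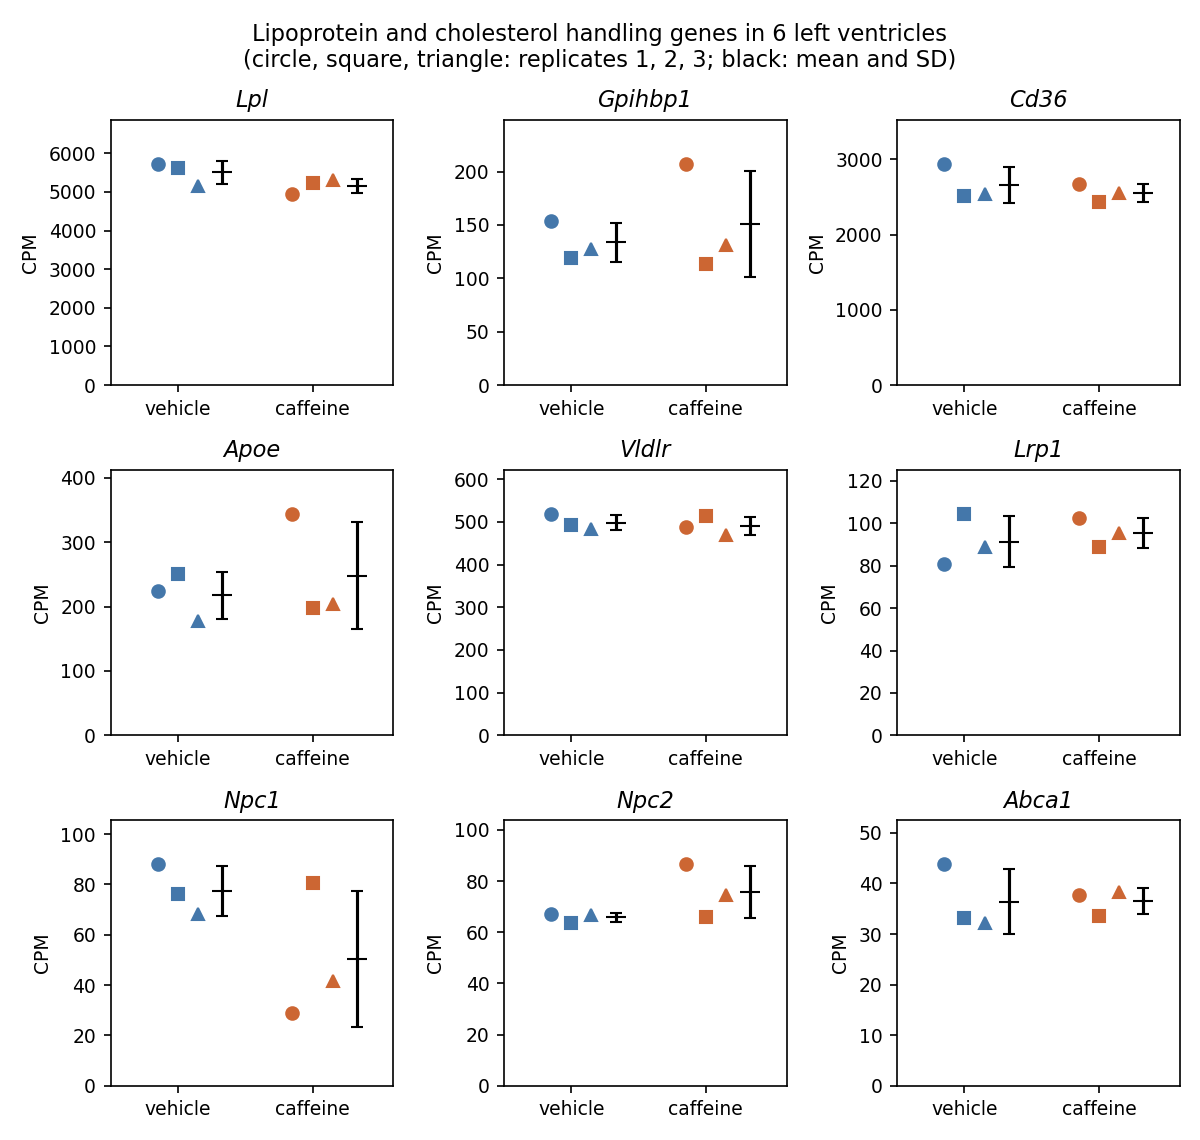
Each panel plots 1 gene in CPM, the count relative to the TMM-scaled library total, on an axis from 0, with circle, square and triangle for replicates 1, 2 and 3 and a black mark for the mean and SD of 3 hearts. Points of the 2 treatments overlap in all 9 panels, and caffeine replicate 1 sits apart upward in Apoe (344 CPM) and Gpihbp1 (207 CPM) and downward in Npc1 (28.8 CPM).

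Total counts ran from 7613011 to 10483101 per heart, with the 3 caffeine-treated hearts the shallowest. Members were well covered, with between 206 counts (Npc1 in caffeine replicate 1) and 59488 (Lpl in vehicle replicate 2) behind each value, while 3 counts correspond to 0.286 to 0.394 CPM. The tissue label was checked against marker genes. The 10 cardiomyocyte markers summed to between 82756 and 95124 CPM and the 3 atrial markers to between 0.840 and 2.05 CPM. The 8 adipocyte markers summed to 14.3 to 16.3 CPM in the vehicle hearts and 14.8 to 16.5 CPM in the caffeine-treated hearts. Most of that sum was Pparg, the only one of the 8 to pass the filter on low counts, at 13.2 to 13.6 CPM in the vehicle hearts and 14.2 to 16.0 CPM in the caffeine-treated hearts, without overlap (log2 fold change 0.19, edgeR adjusted p = 0.708). Over all genes tested, 7.11% lay above the vehicle hearts in every caffeine-treated heart. Ucp1 was at 0 in all 6 hearts and Adipoq, the defining marker, stayed between 0 and 0.284 CPM. Cidec, Cfd, Plin1, Lep and Retn were near the floor and, unlike Pparg, lower on average with caffeine. Cidec held 0 to 1.07 CPM in the vehicle hearts and 0 to 0.140 CPM in the caffeine-treated hearts, and Plin1 0.0946 to 0.488 and 0 to 0.140 CPM. The 9 fibroblast markers summed to 1210 to 1413 CPM in the caffeine-treated hearts and 952 to 1135 CPM in the vehicle hearts, without overlap. Dcn was the largest part of that sum, at 608 to 767 CPM in the caffeine-treated hearts and 505 to 581 CPM in the vehicle hearts. Of the 9 markers 0 were called, against 0.107% of all genes tested. In 3 of the 9 every caffeine-treated heart lay above the vehicle hearts, against 7.11% of all genes tested. In bulk tissue a difference in the number of cells of a type and a difference in RNA per cell cannot be told apart.

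Levels of the members were compared with each other only per length of exon, as RPKM from the TMM-scaled counts and the merged exons of each gene. Averaged over the 6 hearts, Cd36 was highest at 726 ± 50.4 RPKM (SD, n = 6). Lpl followed at 509 ± 27.8 RPKM (SD, n = 6) and Apoe at 109 ± 27.9 RPKM (SD, n = 6). Gpihbp1 at 55.7 ± 13.6 and Vldlr at 49.1 ± 1.82 RPKM overlapped in range and were not separated by their spread. Below them came Npc2 at 13.0 ± 1.57 RPKM, then Npc1 at 5.65 ± 2.08 and Lrp1 at 5.27 ± 0.510, which also overlapped, and Abca1 at 3.51 ± 0.423 RPKM. The other neighbours in this order did not overlap in any heart. With the longest annotated transcript as the length, Lpl (1296 RPKM) stood above Cd36 (766 RPKM) and Gpihbp1 no longer overlapped Vldlr, and the rest of the order was kept.

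Lpl, the lipase itself (ENSMUSG00000015568, chromosome 8 of GRCm38, 68880491 to 68907448), was held within a narrow range. It measured 5729, 5629 and 5160 CPM in vehicle replicates 1 to 3 and 4961, 5230 and 5300 CPM in caffeine replicates 1 to 3. Vehicle replicate 3 lay among the caffeine-treated hearts. The log2 fold change was −0.09 (95% interval −0.29 to 0.10, edgeR adjusted p = 0.829), so that changes beyond a fold of 0.819 or 1.07 lie outside the interval.

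Gpihbp1, the endothelial carrier and anchor of the lipase (ENSMUSG00000022579, chromosome 15, 75596628 to 75599481), varied more. Vehicle replicates 1 to 3 held 154, 119 and 128 CPM, and caffeine replicates 1 to 3 held 207, 114 and 132 CPM. Caffeine replicate 1 was the highest of the 6 hearts and caffeine replicate 2 the lowest. The log2 fold change was 0.17 (SE 0.19, edgeR adjusted p = 0.861), and −0.13 without caffeine replicate 1. The sum of 10 endothelial markers did not share this order and was 1278 CPM in caffeine replicate 1, inside the vehicle range of 1229 to 1382 CPM. Cd36, the fatty acid transporter of cardiomyocytes and endothelium (ENSMUSG00000002944, chromosome 5, 17781690 to 17888801), held 2939, 2508 and 2534 CPM in the vehicle hearts and 2668, 2430 and 2550 CPM in the caffeine-treated hearts. The treatments overlapped, with a log2 fold change of −0.06 (95% interval −0.27 to 0.15, edgeR adjusted p = 0.905).

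The number of lipase counts per count of its anchor, each per kilobase of exon, is a ratio within a library and does not depend on how libraries are scaled. This Lpl to Gpihbp1 ratio was 9.06, 11.5 and 9.83 in vehicle replicates 1 to 3 and 5.83, 11.2 and 9.81 in caffeine replicates 1 to 3. Caffeine replicate 1 was low and the other caffeine-treated hearts lay within the vehicle range. The difference of the mean log2 ratios, caffeine minus vehicle, was −0.23 (two-sided exact permutation test, p = 0.6, where 3 hearts against 3 cannot give less than 0.1), and without caffeine replicate 1 the difference was 0.06.

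Apoe (ENSMUSG00000002985, chromosome 7, 19696109 to 19699188), which macrophages as well as other cells make, held 225, 250 and 178 CPM in the vehicle hearts and 344, 197 and 203 CPM in the caffeine-treated hearts. A single heart, caffeine replicate 1, was above the vehicle hearts, with a Poisson 95% interval of 330 to 357 CPM, and the other 2 lay within the vehicle range. The log2 fold change over all 6 hearts was 0.19 (95% interval −0.25 to 0.63, edgeR adjusted p = 0.849). Without caffeine replicate 1 it was −0.12. The sum of 12 macrophage markers was also highest in that heart, at 576 CPM, and lowest in vehicle replicate 3, at 250 CPM, as Apoe was. It was 451 CPM in caffeine replicate 3, above the vehicle range of 250 to 379 CPM, where Apoe was not raised. Of these 12 markers 0 were called, against 0.107% of all genes tested. In 3 of the 12 every caffeine-treated heart lay above the vehicle hearts, against 7.11% of all genes tested. Lyz2 and C1qa are the 2 of the 12 on the list the study chose from these hearts. They were the largest parts of the sum, at 206 and 126 CPM in caffeine replicate 1. The vehicle hearts held 83.5 to 139 and 48.9 to 78.3 CPM of them. The part of the 12 markers in the Apoe values was not tested.

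**Figure D2:**
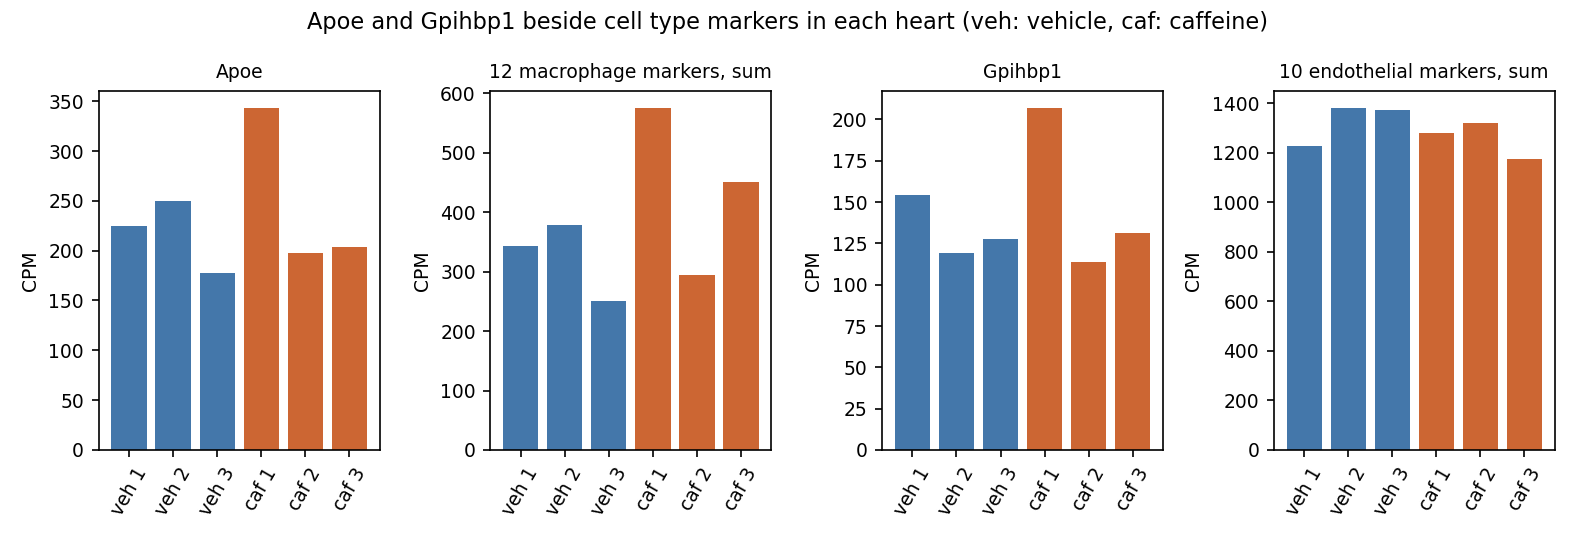
Bars give CPM in each heart on axes from 0, blue for vehicle (veh) and orange for caffeine (caf), for Apoe, the sum of 12 macrophage markers, Gpihbp1 and the sum of 10 endothelial markers. The tallest bar for Apoe (344 CPM), for the macrophage sum (576 CPM) and for Gpihbp1 (207 CPM) is caffeine replicate 1, while the endothelial sum stays between 1176 and 1382 CPM in all 6 hearts.

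The receptors overlapped widely between treatments. Vldlr (ENSMUSG00000024924, chromosome 19, 27216484 to 27254231), the receptor that binds triglyceride-rich particles in muscle, held 518, 493 and 484 CPM in the vehicle hearts and 487, 513 and 470 CPM in the caffeine-treated hearts. Its highest heart exceeded its lowest by a factor of 1.10, less than for any other member, and its log2 fold change was −0.02 (95% interval −0.20 to 0.15, edgeR adjusted p = 0.965). Lrp1, a large endocytic receptor for remnants and many other ligands (ENSMUSG00000040249, chromosome 10, 127538161 to 127621148), held 80.9, 104 and 88.7 CPM in the vehicle hearts and 103, 88.6 and 95.2 CPM in the caffeine-treated hearts. All 3 caffeine-treated hearts lay within the vehicle range, and the log2 fold change was 0.06 (95% interval −0.18 to 0.30, edgeR adjusted p = 0.921).

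Npc1, the lysosomal membrane protein through which cholesterol leaves (ENSMUSG00000024413, chromosome 18, 12189692 to 12236400), differed most between hearts. It held 87.9, 76.3 and 68.3 CPM in vehicle replicates 1 to 3, and 28.8, 80.6 and 41.5 CPM in caffeine replicates 1 to 3. Caffeine replicates 1 and 3 were below every vehicle heart, and caffeine replicate 2 lay within the vehicle range. The exact Poisson 95% intervals, which cover counting error only, were 25.03 to 33.06, 74.8 to 86.7 and 37.3 to 46.1 CPM in caffeine replicates 1 to 3. Over all genes every pair of hearts of 1 treatment differed by more than counting error (chi-square per degree of freedom 5.71 to 15.1), so a spread wider than these intervals is not particular to Npc1. The coefficient of variation was 53.6% over the caffeine-treated hearts and 12.8% over the vehicle hearts. The log2 fold change was −0.61 (SE 0.28, 95% interval −1.23 to 0.0001), with an unadjusted p of 0.05002 and an adjusted p of 0.565 (edgeR quasi-likelihood test). Among the other edgeR fits to all 6 hearts, the quasi-likelihood fit with no filter on low counts called Npc1 (log2 fold change −0.63, adjusted p = 7.16e-06), a fit that called 1.07% of 22407 genes, while the exact test with no filter did not (adjusted p = 0.587, 0.415% of genes called). Without caffeine replicate 2 it was called as well, at −1.13 (edgeR adjusted p = 0.0450, 0.165% of genes called), and without caffeine replicate 1 the log2 fold change was −0.34. On this locus 601 of 11317 exon bases (5.31%) are shared with Rmc1 and Gm15956 on the other strand, and the strand setting of the counting is not given in the sources used here. Gm15956 had at most 2 counts in a heart, and Rmc1 had a log2 fold change of −0.14 (edgeR adjusted p = 0.832).

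Npc2, the soluble lysosomal protein that hands cholesterol to Npc1 (ENSMUSG00000021242, chromosome 12, 84754562 to 84773152), ran the other way by a smaller amount. Vehicle hearts held 67.1, 63.6 and 66.7 CPM, and caffeine-treated hearts held 86.5, 66.0 and 74.5 CPM. Caffeine replicates 1 and 3, which were low in Npc1, were above the vehicle hearts in Npc2, and caffeine replicate 2 was within their range. The log2 fold change was 0.20 (95% interval −0.03 to 0.43, edgeR adjusted p = 0.642). Set against each other per kilobase of exon, the Npc1 to Npc2 ratio was 0.629, 0.576 and 0.492 in the vehicle hearts and 0.160, 0.586 and 0.268 in the caffeine-treated hearts. The difference of the mean log2 ratios was −0.94, with log2 means of −0.83 ± 0.18 (vehicle, SD, n = 3) and −1.77 ± 0.94 (caffeine, SD, n = 3). The two-sided exact permutation test gave p = 0.3, where 3 hearts against 3 cannot give less than 0.1. Caffeine replicate 2 lay within the vehicle range. The difference was larger than the SD of the vehicle hearts and about as large as that of the caffeine-treated hearts.

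**Figure D3:**
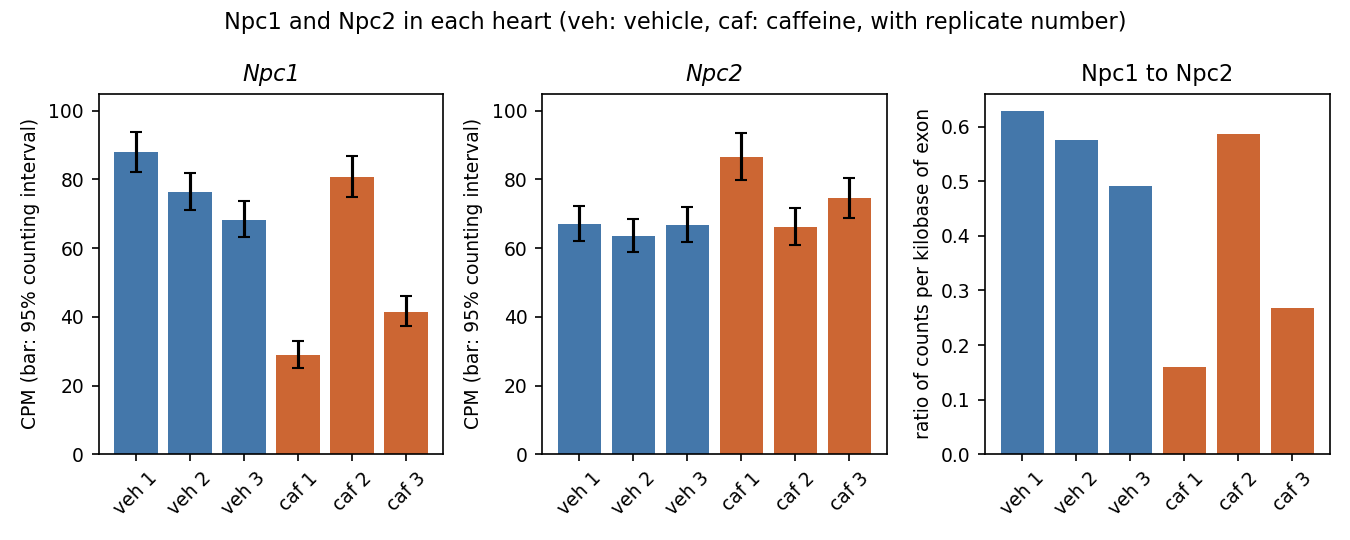
Bars show Npc1 and Npc2 in CPM in each heart with exact Poisson 95% intervals, and at right the ratio of Npc1 to Npc2 counts per kilobase of exon, with vehicle hearts in blue and caffeine-treated hearts in orange. The ratio is 0.160 in caffeine replicate 1 and 0.268 in replicate 3, and 0.586 in replicate 2, which lies within the 0.492 to 0.629 of the vehicle hearts.

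Abca1, the pump of cholesterol efflux (ENSMUSG00000015243, chromosome 4, 53030787 to 53159895), held 43.8, 33.2 and 32.1 CPM in the vehicle hearts and 37.7, 33.5 and 38.2 CPM in the caffeine-treated hearts. Every caffeine-treated heart lay within the vehicle range, and the log2 fold change was 0.00 (95% interval −0.29 to 0.29, edgeR adjusted p = 0.997). Abca1 is a textbook target of the liver X receptors, nuclear receptors that sense oxysterols and bind a direct repeat. Its promoter is shown because that element lies in it and a list of sterol efflux and liver X receptor genes is described below. RefSeq's table for GRCm38.p6 had an entry for 6 of the 9 members, not for Lpl, Gpihbp1 and Npc1. The 250 bases before the Abca1 start, chr4:53159896-53160145 on the minus strand, read 5′ to 3′ with 2 motif matches in capitals.
Abca1 promoter: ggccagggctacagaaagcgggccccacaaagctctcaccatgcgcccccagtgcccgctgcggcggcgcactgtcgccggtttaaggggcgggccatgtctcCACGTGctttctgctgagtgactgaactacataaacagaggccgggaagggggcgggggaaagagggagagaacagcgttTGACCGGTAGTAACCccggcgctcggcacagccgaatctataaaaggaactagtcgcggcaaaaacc
The capitals nearer the start, at −67 to −53, are the liver X receptor element of this promoter, searched on both strands as GGTTA, any 4 bases and CGGTCA, found here on the other strand and chosen with the Abca1 sequence known. They occur in 4 of 32851 promoters of the same length (0.0122%). The other capitals, at −147 to −142, are the E-box CACGTG, found in 1978 of those promoters (6.02%). The matches are a description of these letters and do not overlap each other.

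**Figure D4:**
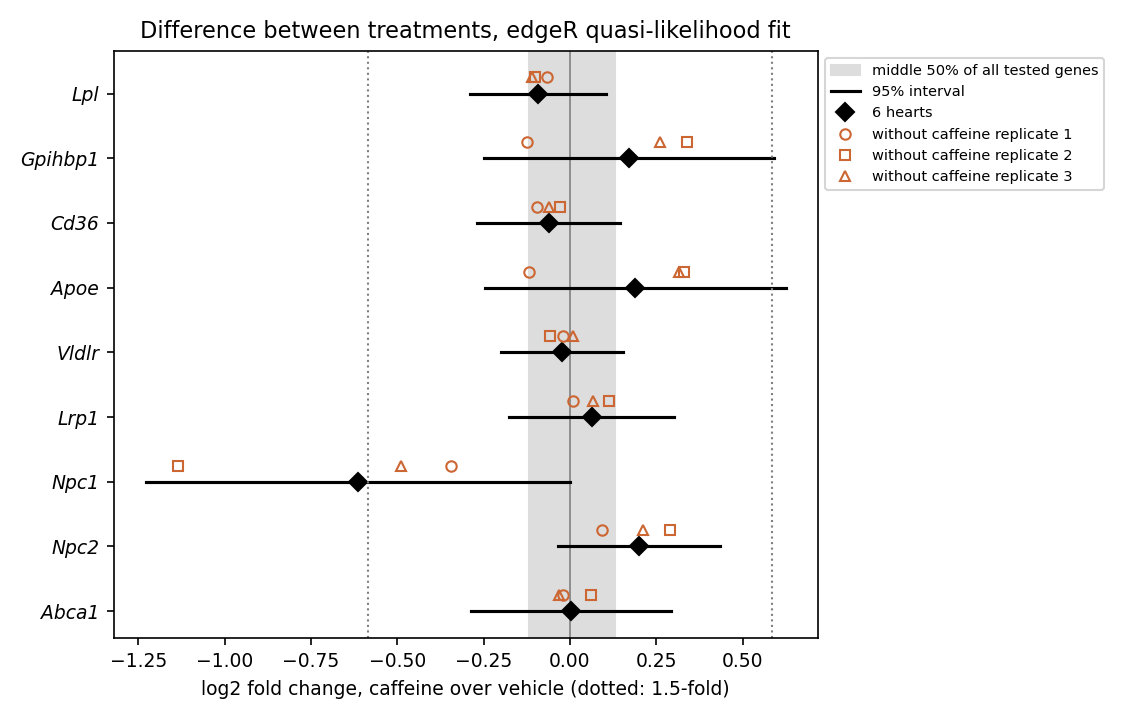
Diamonds give the log2 fold change of each member, caffeine over vehicle, from the edgeR quasi-likelihood fit with its 95% interval as a line, open symbols give the fit without 1 caffeine-treated heart, the grey band holds the middle 50% of all tested genes and dotted lines mark 1.5-fold. All 9 intervals include 0, Npc1 at −0.61 only at its upper end, and the open symbols of Apoe and Gpihbp1 cross 0 without caffeine replicate 1 (−0.12 and −0.13).

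Around the 9 members, 124 other genes of lipid and sterol handling were taken in 9 lists, of which 98 passed the filter on low counts. By the quasi-likelihood test of edgeR 0 of the 98 passed, against 0.107% of all genes tested. In that test 11 had an unadjusted p under 0.05, beside 8.82% of all genes tested. The exact (0.718% of all genes called), likelihood ratio (0.771%), DESeq2 (0.512%) and limma-voom (0.107%) tests called 0 of the 98 as well. The fit with no filter called 1, Angptl4, where it called 1.07% of 22407 genes. All caffeine-treated hearts lay above the vehicle hearts in 1 of the 98 and below them in 11, against 7.11% and 7.12% of all genes tested. The median log2 fold change over the 98 was −0.07, beside 0.00 over all genes.

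Among lipases and regulators of the lipase, 10 of 13 genes were tested, 9 were fitted below 0, and the median log2 fold change was −0.17. Furin, a protease that cleaves lipase and several of its regulators, measured 306, 316 and 276 CPM in the vehicle hearts and 245, 205 and 235 CPM in the caffeine-treated hearts. All caffeine-treated hearts were lower, but the log2 fold change of −0.39 (SE 0.10, edgeR adjusted p = 0.213) did not pass. Pnpla2, the triglyceride lipase of lipid droplets, had the highest RPKM of the list and a log2 fold change of −0.18 (edgeR adjusted p = 0.656). Angptl4, the inhibitor induced by fasting and fatty acids, is named because the fit with no filter called it. It held 21.3, 15.7 and 15.1 CPM in the vehicle hearts and 17.1, 6.66 and 10.9 CPM in the caffeine-treated hearts, which overlapped, with a log2 fold change of −0.61 (edgeR adjusted p = 0.561) and of −0.63 (adjusted p = 0.00917) in the fit with no filter.

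Of the fatty acid uptake and binding genes 12 of 13 were tested, with 5 fitted above 0, 7 below and a median log2 fold change of −0.06. Fabp3, the fatty acid binding protein of heart muscle, was the highest at 756 RPKM and overlapped between treatments (log2 fold change −0.13, edgeR adjusted p = 0.733). Slc27a1, a fatty acid transport protein, held 161, 150 and 155 CPM in the vehicle hearts and 134, 127 and 117 CPM in the caffeine-treated hearts. Its treatments did not overlap, and its log2 fold change was −0.31 (SE 0.09, edgeR adjusted p = 0.279). Fabp5, another fatty acid binding protein, had the highest log2 fold change of the 98 genes, at 0.63 (SE 0.24, edgeR adjusted p = 0.481), and its treatments overlapped.

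Of the apolipoproteins only Clu, Apod, Apoo and Apool passed the filter, 4 of 14, with a median log2 fold change of −0.13. Clu, a secreted chaperone also found on lipoproteins, was the highest of them and lower in every caffeine-treated heart, at 645 ± 67.6 CPM in the vehicle hearts and 532 ± 55.6 CPM in the caffeine-treated hearts (SD, n = 3 each; log2 fold change −0.28, edgeR adjusted p = 0.463). Apool, a mitochondrial protein of the same naming family, did not overlap either and differed by −0.12 on the log2 scale (edgeR adjusted p = 0.777). Among other lipoprotein receptors and adaptors 14 of 18 were tested, with a median of −0.09. Lrp6 (log2 fold change −0.18, edgeR adjusted p = 0.599) and Lrp5 (−0.11, adjusted p = 0.772), receptors of Wnt signalling, were lower in every caffeine-treated heart, and Lrp10, the highest by RPKM, overlapped (−0.16, adjusted p = 0.708).

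Of the sterol efflux and liver X receptor genes 10 of 12 were tested, with a median log2 fold change of 0.02. Nr1h2, one of the liver X receptors, averaged 57.9 CPM in the vehicle hearts and 57.8 CPM in the caffeine-treated hearts (log2 fold change −0.0041, edgeR adjusted p = 0.994). Its partner Rxra held 95.7, 101 and 99.1 CPM in the vehicle hearts and 81.3, 74.8 and 90.3 CPM in the caffeine-treated hearts, with a log2 fold change of −0.26 (edgeR adjusted p = 0.407). Abca7, a relative of Abca1, also did not overlap (−0.38, SE 0.13, adjusted p = 0.403).

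Of the lysosomal and intracellular sterol transport genes 19 of 21 were tested, with a median of −0.01. Lamp1, an abundant lysosomal membrane protein, had the highest RPKM and a log2 fold change of −0.01 (95% interval −0.20 to 0.18, edgeR adjusted p = 0.990). Gramd1b, a carrier of cholesterol from the cell surface to the endoplasmic reticulum, held 20.2, 27.7 and 21.1 CPM in the vehicle hearts and 13.6, 19.6 and 15.9 CPM in the caffeine-treated hearts. Its treatments did not overlap and its log2 fold change was −0.48 (SE 0.17, edgeR adjusted p = 0.404). Nceh1, which hydrolyses cholesteryl esters, was lower in every caffeine-treated heart by a small amount (−0.16, adjusted p = 0.673).

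Of the cholesterol synthesis enzymes 19 of 20 were tested. Their log2 fold changes ran from −0.50 (Sqle) to 0.44 (Lss) with a median of 0.03. Treatments were without overlap in 0 of the 19, against 14.2% of all genes tested. An unadjusted p under 0.05 in edgeR's test was found for 0 of the 19, against 8.82% of all genes tested. Hmgcs1, the highest of them by RPKM, overlapped (log2 fold change −0.15, adjusted p = 0.833). All 7 genes of the processing of SREBP, the factor that switches on this pathway, were tested, with a median of −0.09. All 7 overlapped, where 14.2% of all genes tested did not. Insig2, which holds SREBP back in the endoplasmic reticulum, was the highest of these (log2 fold change 0.13, edgeR adjusted p = 0.769). Of the oxysterol enzymes 3 of 6 were tested, with Cyp27a1 highest (0.30, adjusted p = 0.647). These 3 overlapped as well, beside the same share of all genes.

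**Figure D5:**
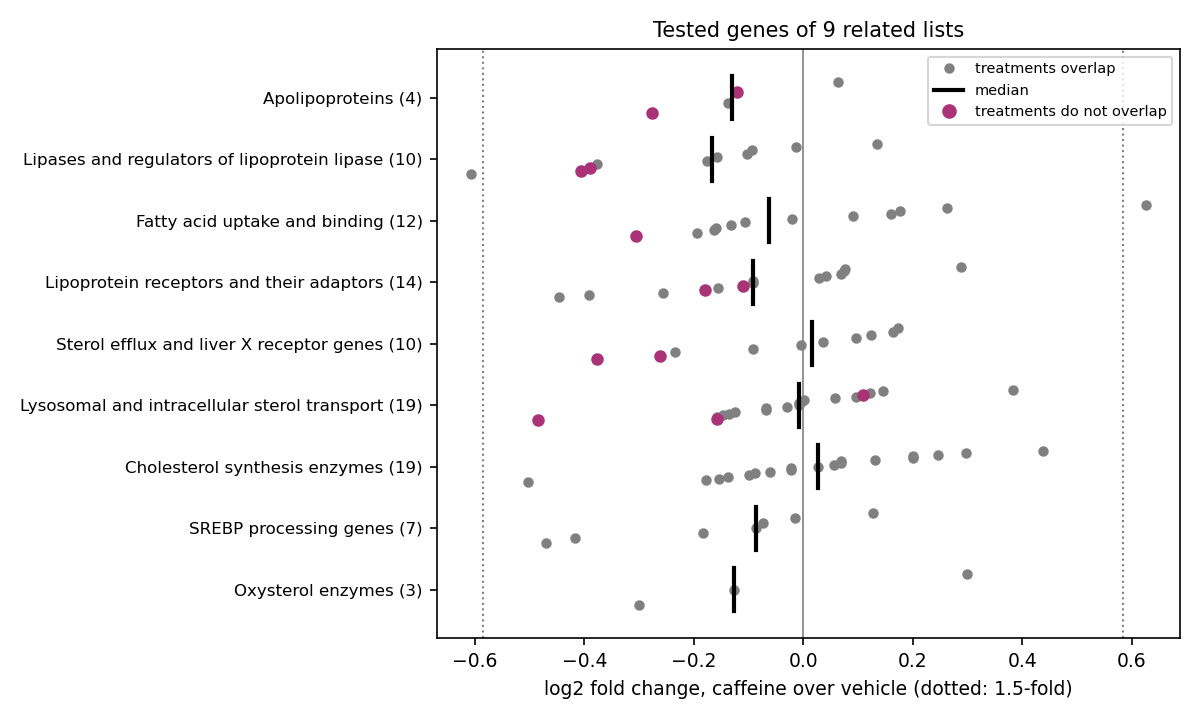
Each point is 1 of 98 tested genes placed by its log2 fold change, caffeine over vehicle, in 9 lists with the number tested in brackets, and a black bar marks the median of a list. Purple points, the genes whose treatments do not overlap, are 12 of the 98, beside 14.2% of all genes tested. Of these 12, 11 lie below 0. None of the 98 genes passed the thresholds, beside 0.107% of all genes tested.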

How the data were processed

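Poly(A) RNA of 6 left ventricles was sequenced as single-end reads in 1 run. The authors cleaned the reads (FastQC), mapped them to mm10 (GRCm38) with Tophat2 and counted them per Ensembl gene with HTSeq, and the deposited values are these raw counts, not normalized or pooled. The kit does not mark strand.

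Symbols, positions and exon lengths came from GENCODE (mouse, GRCm38), matched by identifier (42462 of 43629). Low genes were removed by filterByExpr (at least 10 counts, total of at least 15). TMM-normalized counts went into glmQLFit and glmQLFTest of edgeR (common dispersion 0.0145), treatment being the only term and p-values adjusted over all 13092 genes. CPM and RPKM use the TMM factors. Intervals of log2 fold changes take the t quantile of the fit's degrees of freedom, and Poisson intervals cover counting error only. Ratios used a pseudocount of 0.5 and 20 labelings. Fits were tested on simulated data. Fits ran in R (4.3.3) with limma (3.58.1), edgeR (4.0.16) and DESeq2 (1.42.0), and permutation tests in SciPy (1.17.1).

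The members and lists were chosen with earlier results of these data known. Text names all members and, from each list, called genes, the highest by RPKM and up to 2 with the largest change among genes whose treatments did not overlap. A result of this rule is not reported here. Angptl4, Fabp5, Sqle, Lss, Apod and Apoo were named after their values were seen. Alternatives were other tests, scalings and filters, a replicate block and leaving out each heart.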

Additional observations from a re-analysis of the deposited data

How the results depend on the processing

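Of 144 values of the members under other settings, 128 kept their direction and side of the thresholds, 14 changed sign and 2, both of Npc1, passed the thresholds. The count of called members, 0 of 9, became 1 with no filter on low counts (1.07% of all genes called) and 1 without caffeine replicate 2 (0.165%). Npc1 was the gene in each, and the count ranged from 0 to 1 over the 6 fits that leave out a heart. The count of called pathway genes, 0 of 98, became 1 (Angptl4) with no filter and was 0 in every fit without a heart. The causes were not tested. Abca1, at 0.00 on the log2 scale, was −0.075 with library size only and −0.018 with no filter in both the quasi-likelihood and the exact test. Lrp1 was −0.025 with library size only, a scaling that moved the median of all genes to −0.08. Leaving out each heart in turn, log2 fold changes ran from −0.12 to 0.33 for Apoe, −0.13 to 0.34 for Gpihbp1, −0.10 to 0.016 for Cd36, −0.079 to 0.16 for Abca1, −0.058 to 0.0076 for Vldlr, −0.017 to 0.17 for Lrp1 and −1.13 to −0.34 for Npc1. The Npc1 to Npc2 log2 ratio difference ran from −1.44 to −0.51, and that of Lpl to Gpihbp1 from −0.41 to 0.057.

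The labels number replicates 1 to 3 in both treatments without naming a shared day. Each dam received either vehicle or caffeine, so hearts of different treatment do not share a litter. Across genes, the deviations of same-numbered hearts from the group mean gave r of 0.045, −0.030 and −0.038, within the −0.083 to 0.12 of hearts with different numbers. Taken over all genes these values show no pairing by number, but they cannot exclude a pairing that acts on some genes. With the replicate number as a block edgeR called 40 genes in place of 14 and 0 of the 9 members, with Npc1 at −0.71 (adjusted p = 0.395). With equal numbers per treatment the block cannot move the differences of the ratios, −0.94 for Npc1 to Npc2 and −0.23 for Lpl to Gpihbp1, and their exact permutation p went from 0.3 to 0.5 and from 0.6 to 0.25, the smallest that 3 pairs allow. Each member had at least 206 counts per heart, and 3 hearts per treatment limit the precision.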

Other observations

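For no member did the treatments stay apart, so the rule for genes of like pattern named none. For Npc1, chosen after its values were seen, the tested genes nearest in pattern over the 6 hearts were Proscos, Pde7b and Radil. The measure was the root mean square difference of centred log2 CPM, which was 0.18, 0.19 and 0.21 beside 0.58 for Npc1 about its own mean. The log2 fold changes of the 3 genes were −0.39, −0.64 and −0.94, and with 13092 genes and 6 hearts near matches are found for any pattern. Caffeine replicate 1 was the highest heart for 3 members (Apoe, Gpihbp1 and Npc2) and the lowest for 2 (Lpl and Npc1), beside 20.0% and 20.3% of all tested genes.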
